A study of Mus musculus with 17 samples.

Results

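The respiratory chain of mouse ES cells was followed through 93 genes, the rows of the deposited table whose symbols name a subunit of complexes I to V of oxidative phosphorylation. They were chosen by symbol, not by their values, out of 15470 rows. The names start with Uqcr, Cox4 to Cox8 or Atp5, or with Nduf followed by a, b, c, s or v and a digit. *Sdha* to *Sdhd* and the protein-coding genes starting with mt- were also taken. Of these members, 80 are nuclear genes on 19 chromosomes and 13 are encoded by mitochondrial DNA. Complexes were assigned by symbol alone, which places *Ndufa4* in complex I. Counted in this way, complex I has 43 members, complex II has 4, complex III has 9, complex IV has 18 and complex V has 19. *Ndufa4l2* was left out by the rule, and *Atp5s*, *Atp5sl* and *Cox7a2l* fit it by name although they are not stable subunits.

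RNA-seq of bulk cultures compared *Nanog* KO ES cells (BT12) with their parental control line (E14Tg2a) to follow the role of *Nanog* as cells leave naïve pluripotency. The groups were *Nanog* KO at 0, 12 and 24 h, with 3 libraries each, and control at 0 h, with 2 libraries, and at 12 and 24 h, with 3 libraries each. At 0 h both lines were in medium with LIF, Knockout serum replacement and the inhibitors CHIR-99021 and PD0325901 (2i), which block GSK3 and MEK, over inactivated mouse embryonic fibroblasts, and they were then moved to serum for 12 or 24 h. Each genotype is a single line, so the loss of *Nanog* and any other difference between the lines cannot be told apart. The labels do not say that the replicates were separate cultures, and p-values therefore measure the spread between these libraries, which may be technical.

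Complexes I, III and IV pump protons across the inner mitochondrial membrane while electrons pass to oxygen, complex II feeds in electrons from succinate, and complex V uses the gradient to make ATP. Mitochondrial DNA is transcribed by its own polymerase into long RNAs that are cut into rRNAs, tRNAs and mRNAs, and the other subunits come from nuclear genes, many of them bound by NRF1, GABPA or YY1. Naïve ES cells are known to use both respiration and glycolysis, and cells that leave this state to lean more on glycolysis.

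The mitochondrial members have near-identical copies in the nuclear genome, and these were looked at first because they set how many reads a row receives. Over the length compared, *mt-Atp6*, *mt-Co2*, *mt-Co3* and *mt-Nd4l* were identical to the pseudogenes *Gm10925*, *Gm28661*, *Gm28437* and *Gm10222*, and *mt-Nd3* differed from *Gm28438* at 1 of 345 bases. All of them lie between 24612407 and 24615565 of chromosome 1 (GRCm38). The first 60 bases of the GENCODE transcripts of *mt-Nd3* and *mt-Co3* and of their copies (GRCm38) are shown 5′ to 3′, because the values of these rows turned on the copies, and a capital marks the base at which a pair differs.
mt-Nd3: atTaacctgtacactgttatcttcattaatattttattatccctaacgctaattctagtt
Gm28438: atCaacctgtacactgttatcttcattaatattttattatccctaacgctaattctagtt
mt-Co3: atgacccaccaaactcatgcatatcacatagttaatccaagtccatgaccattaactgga
Gm28437: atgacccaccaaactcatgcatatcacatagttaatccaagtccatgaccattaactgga
A read from such a stretch fits both places equally well. In CPM (read counts scaled to library size with TMM factors, as deposited), the copies took more than their genes. Over all libraries *Gm28437* averaged 1947 CPM and *mt-Co3* 618 CPM, *Gm28661* averaged 2476 CPM and *mt-Co2* 713 CPM, *Gm10925* averaged 1896 CPM and *mt-Atp6* 392 CPM, and *Gm28438* averaged 195 CPM and *mt-Nd3* 93.2 CPM. *Gm10222* was the exception, with 5.71 CPM beside 221 CPM of *mt-Nd4l*.

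The other 8 mitochondrial members shared at most 29.6% of their 31-base words with another gene in the deposited table (*mt-Co1* with *Gm29216*). Annotated genes outside the table were not listed. The reading frames of *mt-Atp8* and *mt-Atp6* overlap from 7927 to 7969 of the mitochondrial chromosome, and the 43 bases are shown since reads within them belong to neither gene with certainty.
mt-Atp8 and mt-Atp6 overlap: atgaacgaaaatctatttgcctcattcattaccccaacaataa
Among nuclear members *Atp5g2*, *Cox7a2l*, *Cox7c*, *Ndufa12*, *Ndufb4* and *Ndufs5* shared 14 to 37.5% of their words with a processed pseudogene in the table, which makes their values less certain.

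Libraries held 8775372 to 33766086 reads (median 19777267), so that 3 reads stood for 0.0851 to 0.326 CPM. *Nanog* was at 12.5 to 34.6 CPM in *Nanog* KO libraries and at 271 to 412 CPM in control libraries. Every one of 10 ES cell markers and of 16 feeder fibroblast markers was in the table, and no fibroblast marker was at 0. The fibroblast markers summed to 1254 to 1390, 684 to 874 and 348 to 423 CPM in *Nanog* KO libraries at 0, 12 and 24 h, and to 1950 to 2084, 1450 to 1561 and 914 to 1036 CPM in control libraries. Their sum was lower at later times and lower in *Nanog* KO cells than in controls at each time. Single markers did not all follow it, with 7, 9 and 11 of the 16 called lower and 4, 3 and 2 called higher in *Nanog* KO cells than in controls at 0, 12 and 24 h. As shares, 43.8, 56.2 and 68.8% were lower, against 26.9, 25.2 and 24.5% of all genes tested. The shares called higher were 25, 18.8 and 12.5%, against 25.4, 24.6 and 23.4% of all genes. *Pdgfra*, named after its values were seen, averaged 20.9, 35.8 and 44.3 CPM in *Nanog* KO libraries at these times, against 5.48, 4.43 and 3.71 CPM in controls. The ES cell markers summed to means of 5084, 4548 and 4207 CPM in *Nanog* KO libraries at 0, 12 and 24 h, and of 3902, 4486 and 4671 CPM in controls. Single ES cell markers went both ways, with 4, 2 and 2 of the 10 called higher and 3, 4 and 5 called lower in *Nanog* KO cells at these times. These are 40, 20 and 20% higher and 30, 40 and 50% lower, and counts out of 10 are coarse. The share higher at 12 and 24 h and the share lower at 0 h were near those of all genes. The part of the markers of either cell type in the results that follow was not tested. In bulk cultures fewer cells of a type and less RNA per cell cannot be told apart. All 93 members reached 1 CPM in at least 3 libraries and were tested, but *Cox4i2* passed only through the 0 h groups and *Cox7b2* only through control libraries, so both had to differ. Without this pair, a choice added after seeing the data, 37 and 42 of 78 nuclear members were called lower at 12 and 24 h against 0 h in *Nanog* KO cells, against 45 and 33 in control cells, and 5, 3 and 7 were lower in *Nanog* KO cells than in controls at 0, 12 and 24 h.

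Summed over each genome, mitochondrial mRNA took a larger part of the libraries after 24 h in serum. The 13 mitochondrial members took 1.35, 1.46 and 1.80% of reads in *Nanog* KO libraries at 0 h, 1.94, 1.94 and 1.86% at 12 h and 3.0, 2.27 and 2.37% at 24 h. In control libraries they took 1.40 and 1.41% at 0 h, 1.80, 1.71 and 1.88% at 12 h and 2.05, 2.21 and 2.27% at 24 h. In both genotypes every library at 24 h lay above every library at 0 h, and replicate 1 of *Nanog* KO at 24 h lay above all others. These shares, and the ratio below, leave out the copies on chromosome 1. With the copies and *Gm29216* added, *Nanog* KO libraries had 1.91 to 2.48% at 0 h and 3.09 to 4.08% at 24 h. Control libraries then had 1.86 to 1.88% at 0 h and 2.79 to 3.03% at 24 h.
The 80 nuclear members took 1.33, 1.30 and 1.27% of reads in *Nanog* KO libraries at 0 h, 1.19, 1.18 and 1.17% at 12 h and 1.12, 1.15 and 1.25% at 24 h. In control libraries they took 1.26 and 1.14% at 0 h, 1.13, 1.13 and 1.10% at 12 h and 1.20, 1.14 and 1.13% at 24 h. In *Nanog* KO cells all later libraries lay below the 0 h libraries, whereas in control cells the pair at 0 h lay far apart and overlapped the libraries at 24 h. The ratio of mitochondrial to nuclear summed CPM was 1.18 ± 0.21, 1.62 ± 0.03 and 2.19 ± 0.43 (SD, n = 3 each) in *Nanog* KO cells at 0, 12 and 24 h, and 1.18 ± 0.09 (SD, n = 2), 1.60 ± 0.10 and 1.89 ± 0.16 (SD, n = 3 each) in control cells.

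**Figure D1:**
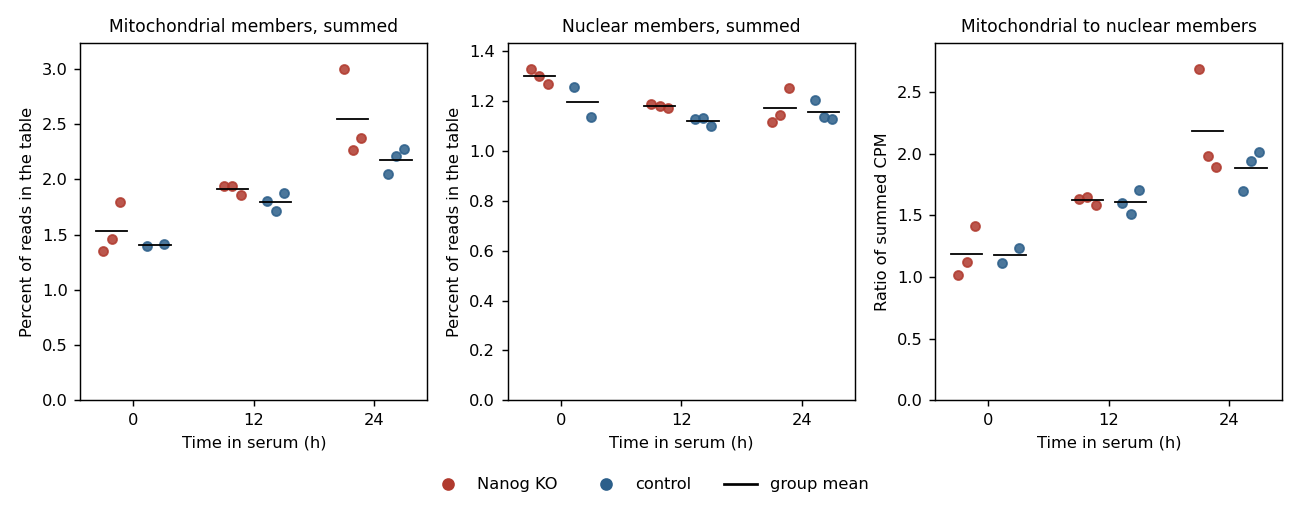
Percent of reads taken by the 13 mitochondrial members (left) and the 80 nuclear members (middle), and the ratio of their summed CPM (right), against hours in serum. Reads of the copies on chromosome 1 are left out. Points are libraries of *Nanog* KO or control cells and bars are group means. The mitochondrial share was higher at 24 h than at 0 h in both genotypes, with 1 *Nanog* KO library at 3.0%.

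Gene by gene, most mitochondrial mRNAs were more abundant after 24 h in serum. A gene was called when limma, fitted across all 15117 genes tested, gave a Benjamini-Hochberg adjusted p under 0.05, and fold changes are differences in log2(CPM + 1) with their SE. At 24 h against 0 h, 12 of 13 mitochondrial members were called higher in *Nanog* KO cells (28.8% of all genes tested were called higher), with a median log2 fold change of 0.71. In control cells 10 of 13 were called higher (26.1% of all genes), with a median of 0.51. The median of all genes tested was -0.002 in *Nanog* KO and -0.006 in control cells. None of the 13 was called lower by limma, edgeR or DESeq2 in either genotype (29.5% and 28.7% of all genes were called lower by limma), and at an unadjusted p under 0.05 limma gave 0 lower.

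The mitochondrial genes of complex I encode its proton-pumping membrane arm, and *mt-Nd1* and *mt-Nd3* had the highest fold changes among them. In *Nanog* KO libraries *mt-Nd1* had 1542, 1619 and 1992 CPM at 0 h, 2714, 2730 and 2601 CPM at 12 h and 4603, 3261 and 3807 CPM at 24 h. In control libraries it had 1671 and 1594 CPM at 0 h, 2353, 2278 and 2457 CPM at 12 h and 3011, 3156 and 3057 CPM at 24 h. The 3 times did not overlap in either genotype. At 24 h against 0 h the log2 fold change was 1.17 ± 0.10 in *Nanog* KO cells (limma adjusted p = 1.2e-08) and 0.91 ± 0.11 in control cells (limma adjusted p = 1.5e-06), and it was already 0.65 ± 0.10 and 0.53 ± 0.11 at 12 h.
*mt-Nd3* had 31.8, 40.8 and 84.3 CPM at 0 h, 84.1, 96.2 and 116 CPM at 12 h and 178, 125 and 136 CPM at 24 h in *Nanog* KO libraries. Control libraries had 41.6 and 56.5 CPM at 0 h, 94.6, 73.3 and 75.2 CPM at 12 h and 118, 102 and 133 CPM at 24 h. All libraries at 24 h exceeded those at 0 h, and replicate 3 of *Nanog* KO stood apart at 0 h. Between 24 h and 0 h the log2 fold change was 1.57 ± 0.24 and 1.25 ± 0.27 in *Nanog* KO and control cells, and, with the reads of *Gm28438* (printed above) added, 1.14 ± 0.12 and 1.24 ± 0.14.

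The rest of the complex I genes had smaller fold changes. At 24 h *mt-Nd2*, *mt-Nd4* and *mt-Nd5* were called higher by 0.75, 0.65 and 0.52 in *Nanog* KO cells, against 0.42, 0.46 and 0.54 in control cells. *mt-Nd6*, which lies on the opposite strand to the other 12, was called higher by 0.59 and 0.51, within the range of the others. *mt-Nd4l* shares 7 bases with *mt-Nd4* and was called higher in *Nanog* KO cells (0.43 ± 0.12, limma adjusted p = 0.0042), while in control cells it was at 0.30 ± 0.13 (limma adjusted p = 0.06).

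*mt-Cytb*, the cytochrome b of complex III, had 1499, 1594 and 1949 CPM at 0 h, 2281, 2299 and 2122 CPM at 12 h and 3537, 2619 and 2746 CPM at 24 h in *Nanog* KO libraries, and 1682 and 1786 CPM, 2110, 2014 and 2095 CPM and 2309, 2489 and 2479 CPM at the same times in control libraries. The 3 times did not overlap in either genotype. It was called higher at 24 h against 0 h in both genotypes, by 0.82 ± 0.10 and 0.48 ± 0.11.
*mt-Co1* encodes the subunit of complex IV that holds the oxygen-reducing site. It stood at 6224, 6524 and 7958 CPM at 0 h, 7851, 7701 and 7576 CPM at 12 h and 11960, 8919 and 8982 CPM at 24 h in *Nanog* KO libraries. In control libraries it stood at 5687 and 5624 CPM at 0 h, 7030, 6761 and 7067 CPM at 12 h and 7872, 8470 and 8609 CPM at 24 h. Replicate 3 of *Nanog* KO at 0 h lay above all 12 h libraries of that line, while in control cells the 3 times did not overlap. The log2 fold change at 24 h against 0 h was 0.52 ± 0.10 and 0.56 ± 0.11 in *Nanog* KO and control cells (limma adjusted p = 0.00022 and 0.0004).
*mt-Atp8*, a membrane subunit of ATP synthase, had 447, 448 and 581 CPM at 0 h, 584, 595 and 533 CPM at 12 h and 1066, 761 and 856 CPM at 24 h in *Nanog* KO libraries. The control libraries held 415 and 428 CPM at 0 h, 509, 479 and 518 CPM at 12 h and 706, 757 and 705 CPM at 24 h. In both genotypes the libraries at 24 h lay above all earlier ones, and the change was called from 12 to 24 h (0.64 ± 0.10 and 0.53 ± 0.10) but not from 0 to 12 h (0.22 ± 0.10 and 0.25 ± 0.11). Per kilobase, with the copies added, mean levels at 24 h were 6443 CPM per kilobase for *mt-Co1* in *Nanog* KO and 5383 in control cells, 6110 and 4958 for *mt-Co2*, 4947 and 3869 for *mt-Atp6*, 4530 and 3385 for *mt-Co3*, 4383 and 3541 for *mt-Atp8* and 4065 and 3213 for *mt-Nd1*. The other 7 genes lay between 843 (*mt-Nd5*) and 2594 (*mt-Cytb*) in *Nanog* KO cells, and between 686 and 2120 in control cells.

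For the genes with an abundant copy, the row alone held a varying part of the reads that fit. Over the 17 libraries *mt-Co3* held 13.1 to 42.9% of the sum of itself and *Gm28437*, *mt-Co2* held 16.1 to 28.5%, *mt-Atp6* held 12.8 to 27.1% and *mt-Nd3* held 17.6 to 47.4%. In control cells the row of *mt-Co3*, a core subunit of complex IV, had 667 and 712 CPM at 0 h, 420.3, 292 and 652 CPM at 12 h and 551, 522 and 831 CPM at 24 h. It was called lower at 12 h against 0 h (-0.67 ± 0.26, limma adjusted p = 0.039), the only such call among mitochondrial members in any comparison (24.5% of all genes tested were called lower here), and neither edgeR nor DESeq2 made it. The call was also lost without replicate 2 or 3 at 0 h or replicate 1 or 2 at 12 h of control. With *Gm28437* added the same libraries had 1828 and 1658 CPM at 0 h, 1978, 1835 and 2063 CPM at 12 h and 2598, 2782 and 2581 CPM at 24 h, and the change at 12 h was 0.17 ± 0.12 (limma adjusted p = 0.27), of the opposite sign.
With the 5 copies added to their genes, a choice made after the values were seen, all 13 mitochondrial members were called higher at 24 h against 0 h in both genotypes, with medians of 0.65 in *Nanog* KO cells (0.44 to 1.17) and 0.54 in control cells (0.39 to 1.24). *mt-Co2*, the copper-binding subunit of complex IV, was not called on its row (0.52 ± 0.23 and 0.37 ± 0.26) and was called with *Gm28661* added (0.52 ± 0.10 and 0.43 ± 0.11). *mt-Atp6*, which forms part of the proton path of ATP synthase, was called on its row and with the copy, at 0.79 ± 0.20 and 0.94 ± 0.23 on its row and at 0.88 ± 0.10 and 0.70 ± 0.11 with *Gm10925*.

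**Figure D2:**
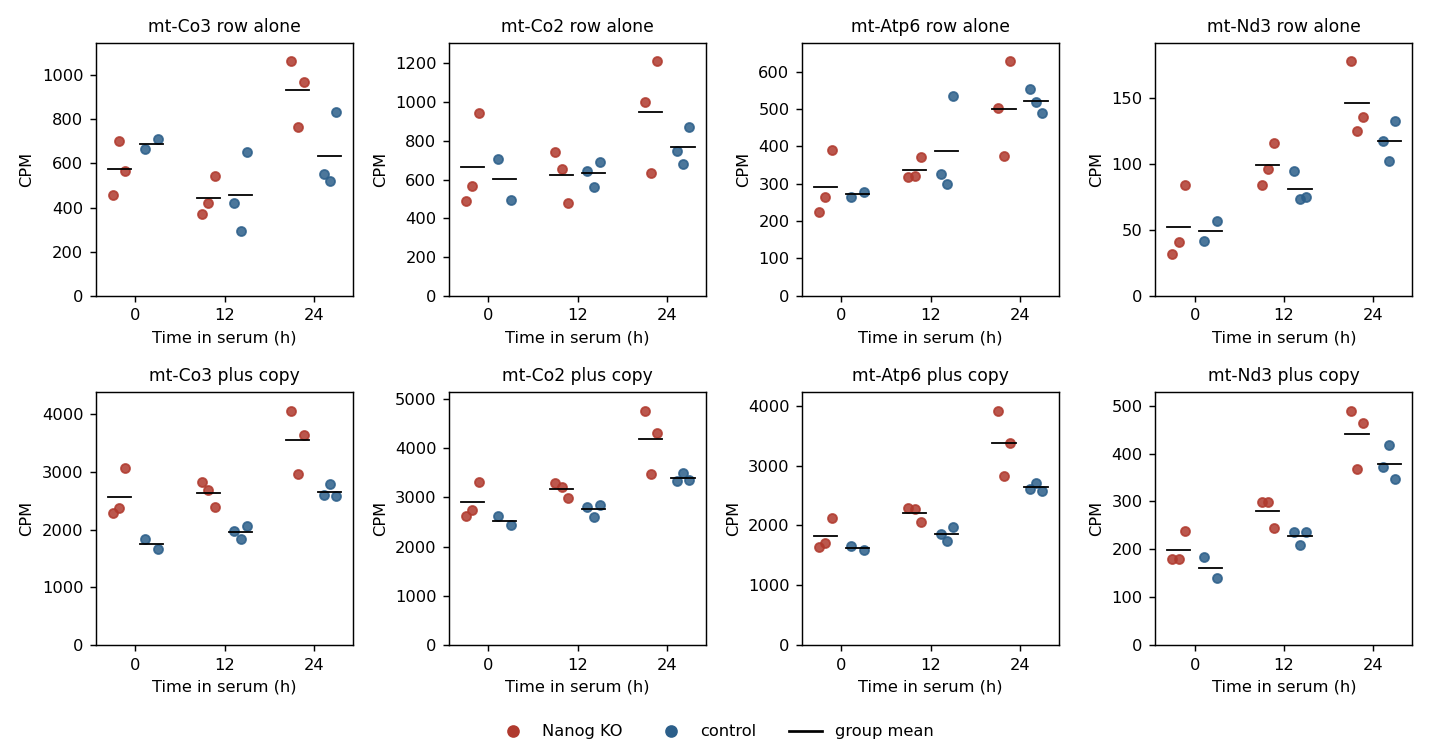
CPM of *mt-Co3*, *mt-Co2*, *mt-Atp6* and *mt-Nd3* against hours in serum, for the mitochondrial row alone (top) and with its copy on chromosome 1 added (bottom). Points are libraries of *Nanog* KO or control cells and bars are group means. In control cells *mt-Co3* alone was lower at 12 h (292 to 652 CPM) than at 0 h (667 and 712 CPM), whereas the sums were 1835 to 2063 CPM at 12 h and 1828 and 1658 CPM at 0 h.

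At 12 h against 0 h, 7 mitochondrial members were called higher in *Nanog* KO cells (25.7% of all genes tested), with a median of 0.28, and 4 in control cells (22.6% of all genes), with a median of 0.25. *mt-Nd1*, *mt-Nd3* and *mt-Nd5* were called in both. The count in *Nanog* KO cells was 3 without replicate 1 at 0 h and 4 when replicate 2 at 0 h or replicate 1 at 12 h was left out. In control cells it was 1 without replicate 2 at 0 h or replicate 1 at 12 h, 2 without replicate 3 at 0 h or at 12 h, and 8 with plain CPM.
From 12 to 24 h, 8 were called higher in *Nanog* KO cells (13.1% of all genes tested) and 2, *mt-Nd1* and *mt-Atp8*, in control cells (15.1% of all genes). Without replicate 1 of *Nanog* KO at 24 h, 5 were called in *Nanog* KO cells, against 6 in control cells. The control count was also 5 without replicate 3 of *Nanog* KO at 0 h, 4 when replicate 2 of the 24 h *Nanog* KO group, replicate 3 of control at 12 h or replicate 1 of control at 24 h was left out, and 3 when replicate 1 of the 0 h or replicate 3 of the 24 h *Nanog* KO group was. Both rRNAs of mitochondrial DNA, which are cut from the same RNA, were also higher. *mt-Rnr1*, of the small ribosomal subunit, had 464, 275 and 406 CPM at 24 h against 82.1, 80.0 and 105 CPM at 0 h in *Nanog* KO libraries, and 239.7, 342 and 266 CPM at 24 h against 62.6 and 53.8 CPM at 0 h in control libraries. The times did not overlap, and the log2 fold change was 2.07 ± 0.16 in *Nanog* KO and 2.25 ± 0.18 in control cells (limma adjusted p = 4.5e-09 and 8.5e-09). *mt-Rnr2*, of the large subunit, was at 0.59 ± 0.18 and 0.53 ± 0.20, called in both, though its libraries at 0 and 24 h overlapped. It had 743, 456 and 649 CPM at 24 h against 360, 372.5 and 478 CPM at 0 h in *Nanog* KO libraries. Control libraries had 412.3, 635.5 and 486 CPM at 24 h against 413.4 and 295 CPM at 0 h.

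Nuclear members mostly went the other way. At 12 h against 0 h, 38 of 80 were called lower in *Nanog* KO cells (47.5%, against 26.1% of all genes tested) and 2 higher, with a median log2 fold change of -0.18. In control cells 46 were called lower (57.5%, against 24.5% of all genes) and 2 higher, with a median of -0.22. At 24 h against 0 h, 43 were called lower and 4 higher in *Nanog* KO cells (53.8% lower, against 29.5% of all genes), with a median of -0.18. In control cells 34 were lower and 7 higher (42.5% lower, against 28.7% of all genes), with a median of -0.15. The shares called higher were 2.5 and 5% in *Nanog* KO cells at 12 and 24 h, against 25.7 and 28.8% of all genes. For control cells they were 2.5 and 8.75%, against 22.6 and 26.1% of all genes. The genotypes, which share no library in these comparisons, had 35 members called lower in both at 12 h (43.8%, against 15.2% of all genes tested) and 29 at 24 h (36.2%, against 17.8% of all genes). The fit took the spread of each gene from all 17 libraries, so the calls of the genotypes are not independent.
The counts in control cells turned on the pair of libraries at 0 h. Without replicate 2 of control at 0 h, 19 nuclear members were lower at 12 h and 17 at 24 h, and without replicate 3, 50 and 37 were, with 0 higher at 24 h, where 4 were higher without replicate 1 or 2 of control at 24 h. With plain CPM in place of TMM scaling 25 and 22 were lower in control cells, with medians of -0.14 and -0.08. Plain CPM also moved the median of all genes tested there, from -0.009 and -0.006 to 0.066 and 0.056. Over all members, plain CPM called 13 higher and 25 lower at 12 h in control cells, in place of 6 and 47, and 18 higher and 22 lower at 24 h, in place of 17 and 34.

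**Figure D3:**
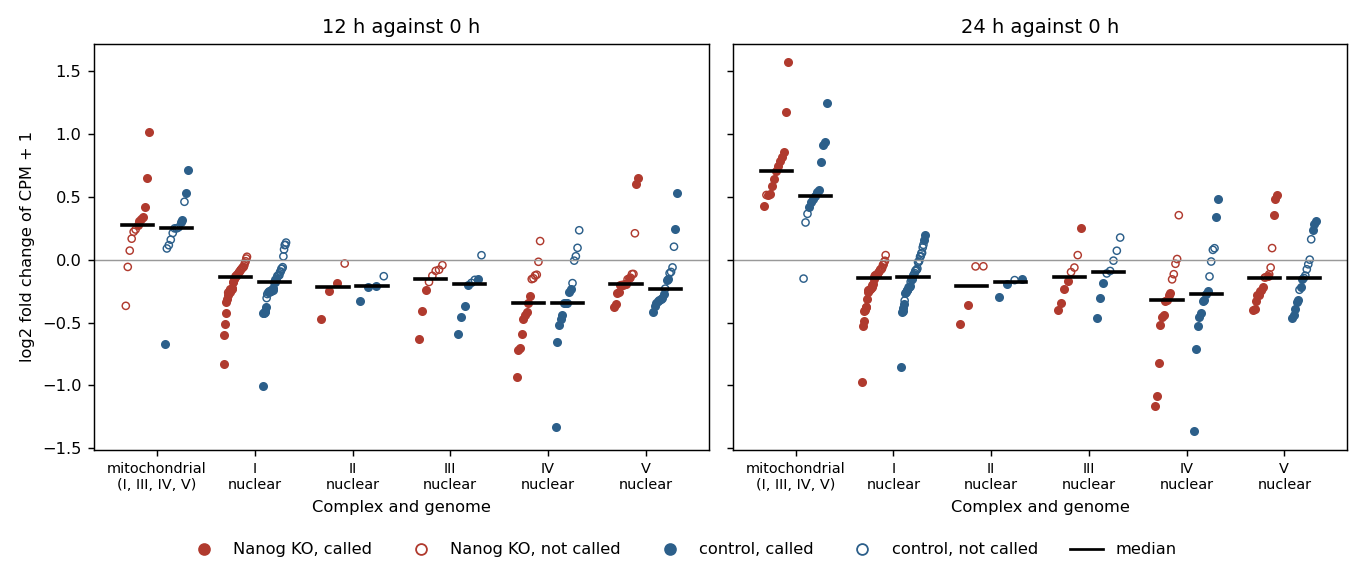
log2 fold changes of CPM + 1 at 12 h (left) and 24 h (right) against 0 h for each member, by complex and genome, in *Nanog* KO and control cells. Filled points were called at a limma adjusted p under 0.05, open points were not, and bars are medians. Most mitochondrial members lie above 0 and most nuclear members below, with complex IV medians of -0.34 and -0.35 at 12 h.

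Complex I takes electrons from NADH. Of its 36 nuclear members 15 were called lower at 12 h and 19 at 24 h in *Nanog* KO cells, with medians of -0.14 and -0.15, and 18 and 12 in control cells, with medians of -0.18 and -0.14. Of all genes tested 26.1 and 29.5% were called lower at these times in *Nanog* KO cells, against 24.5 and 28.7% in control cells. The control share of complex I at 24 h was near that of all genes. *Ndufv3*, an accessory subunit of the NADH-oxidizing module, had the lowest fold changes. It had 127, 120.4 and 114 CPM at 0 h, 69, 64.6 and 68.2 CPM at 12 h and 58.1, 57.8 and 67.3 CPM at 24 h in *Nanog* KO libraries, and 90.8 and 80.1 CPM, 43.2, 39.8 and 43.1 CPM and 49.2, 46.8 and 44 CPM at the same times in control libraries. In each genotype all later libraries lay below those at 0 h, and at each time all *Nanog* KO libraries lay above the control libraries. At 24 h against 0 h the log2 fold change was -0.97 ± 0.07 in *Nanog* KO and -0.86 ± 0.08 in control cells (limma adjusted p = 1e-09 and 3.1e-08).
*Ndufa2*, an accessory subunit of the same arm, was called lower (-0.48 and -0.42) at 24 h, and so was *Ndufa3* (-0.37 and -0.41). *Ndufs1*, a core subunit that carries iron-sulphur clusters, was called lower in *Nanog* KO cells (-0.20 ± 0.06). Control libraries held 149.7, 164 and 151 CPM at 24 h against 153 and 125 CPM at 0 h, which overlap. It was called higher there (0.16 ± 0.07, limma adjusted p = 0.047), a call lost in 14 of the 17 fits that left out 1 library, and the value was 0.02 (limma adjusted p = 0.84) without replicate 3 of control at 0 h. The control call of *Ndufa2* was lost without replicate 2 of control at 0 h (-0.26, limma adjusted p = 0.067).

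Complex II links the chain to the TCA cycle, and its 4 genes had log2 fold changes below 0 at both times in both genotypes. *Sdha*, the flavoprotein that oxidizes succinate, had 318, 307 and 307 CPM at 0 h, 222, 217 and 233 CPM at 12 h and 218, 215 and 220 CPM at 24 h in *Nanog* KO libraries. In control libraries it had 284 and 288 CPM at 0 h, 228, 227 and 229 CPM at 12 h and 229.5, 234 and 234 CPM at 24 h. The later libraries lay well below those at 0 h in both genotypes, and no change was called from 12 to 24 h (-0.04 ± 0.04 and 0.03 ± 0.04). Between 24 h and 0 h the log2 fold change was -0.51 ± 0.04 in *Nanog* KO and -0.30 ± 0.04 in control cells (limma adjusted p = 2.2e-09 and 1e-05). *Sdhc*, a membrane anchor, was called lower (-0.36 and -0.19). *Sdhb*, the iron-sulphur subunit, was at -0.05 ± 0.06, not called, in *Nanog* KO cells and was called lower in control cells (-0.15 ± 0.06, limma adjusted p = 0.049). *Sdhd*, the other anchor, was called at 12 h in both (-0.18 and -0.21) and at 24 h in neither (-0.05 ± 0.07 and -0.16 ± 0.07). These control calls of *Sdhb*, *Sdhc* and *Sdhd* turned on replicate 2 of control at 0 h, without which *Sdhc* was at -0.08 (limma adjusted p = 0.28) and *Sdhb* at -0.04 (limma adjusted p = 0.68) at 24 h, and *Sdhd* at -0.05 (limma adjusted p = 0.6) at 12 h. The *Sdhb* call was lost in 13 of the 17 fits that left out 1 library and the *Sdhd* call in 3 in *Nanog* KO and 3 in control cells.

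In complex III, which passes electrons to cytochrome c, 3 and 4 of 8 nuclear members were lower at 12 and 24 h in *Nanog* KO cells, against 5 and 3 in control cells. Of all genes tested 26.1 and 29.5% were lower in *Nanog* KO cells and 24.5 and 28.7% in control cells, and counts out of 8 genes are coarse. *Uqcrfs1*, the Rieske iron-sulphur protein, had 113, 109 and 111 CPM at 0 h, 74.3, 68.6 and 70.3 CPM at 12 h and 81.4, 86.4 and 83.4 CPM at 24 h in *Nanog* KO libraries, and 109 and 107 CPM, 70.7, 70.3 and 73.3 CPM and 77.5, 76 and 81.1 CPM at the same times in control libraries. In both genotypes it was lowest at 12 h, with no overlap between times. The change was -0.63 ± 0.05 and -0.59 ± 0.05 at 12 h against 0 h, and 0.23 ± 0.05 and 0.13 ± 0.05 from 12 to 24 h (limma adjusted p = 0.00098 and 0.038). The control call from 12 to 24 h was lost without replicate 1 or 2 of the 12 h or replicate 3 of the 24 h group (0.10 to 0.12).

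Complex IV, which reduces oxygen, had the lowest medians of the 5 complexes, -0.34 at 12 h and -0.32 at 24 h in *Nanog* KO cells, against -0.35 and -0.27 in control cells. Of its 15 nuclear members 9 and 10 were called lower in *Nanog* KO cells, against 10 and 9 in control cells. Without *Cox4i2* and *Cox7b2* these were 8 and 9 of 13 in *Nanog* KO cells (61.5 and 69.2%, against 26.1 and 29.5% of all genes tested). In control cells they were 9 and 8 (69.2 and 61.5%, against 24.5 and 28.7% of all genes). *Cox5b*, a subunit on the matrix side, had 219.5, 220.2 and 231 CPM at 0 h, 134, 138 and 133 CPM at 12 h and 149, 171 and 169.5 CPM at 24 h in *Nanog* KO libraries. Control libraries had 169 and 179.5 CPM at 0 h, 137, 135 and 114 CPM at 12 h and 125, 111 and 126 CPM at 24 h. In each genotype the 0 h libraries lay above all later ones. The log2 fold change at 24 h against 0 h was -0.46 ± 0.07 and -0.53 ± 0.08 in *Nanog* KO and control cells (limma adjusted p = 2.1e-05 and 1.8e-05). *Cox5a*, its neighbour in the enzyme, was called lower (-0.28 and -0.46), and *Cox8a* was called lower at 12 h (-0.60 and -0.35).

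Several complex IV subunits come as a widespread and a tissue-restricted isoform. *Cox7a1*, the isoform of heart and skeletal muscle, had 19.6, 17.4 and 16.8 CPM at 0 h, 11.8, 10.6 and 9.51 CPM at 12 h and 6.01, 7.50 and 9.01 CPM at 24 h in *Nanog* KO libraries. The control libraries held 17.9 and 15 CPM at 0 h, 8.94, 10.8 and 10.4 CPM at 12 h and 9.33, 9.27 and 10.4 CPM at 24 h. It was lower at each later time in *Nanog* KO cells, whereas in control cells the libraries at 12 and 24 h overlapped. At 24 h against 0 h the log2 fold change was -1.17 ± 0.12 and -0.71 ± 0.13 (limma adjusted p = 1.8e-07 and 0.00022), and that of its widespread counterpart *Cox7a2* was -0.32 ± 0.09 and -0.27 ± 0.10. The control call of *Cox7a2* was lost without replicate 2 of control at 0 h (-0.18, limma adjusted p = 0.26) or replicate 2 or 3 of the 24 h group.
*Cox6b2*, the testis isoform, had 27.8, 28.6 and 27.8 CPM at 0 h, 22.9, 26.9 and 27.7 CPM at 12 h and 14.5, 14.3 and 17.7 CPM at 24 h in *Nanog* KO libraries. In control libraries it had 29 and 31.7 CPM at 0 h, 33.8, 33.6 and 30.1 CPM at 12 h and 25, 23.8 and 23.2 CPM at 24 h. The drop came between 12 and 24 h in both genotypes, with no overlap between those times, and measured -0.70 ± 0.08 in *Nanog* KO and -0.42 ± 0.08 in control cells (limma adjusted p = 8.8e-06 and 0.00092). *Cox6b1*, its widespread counterpart, was at -0.27 ± 0.07 and -0.25 ± 0.08 at 24 h against 0 h, called lower in both, though in control cells not without replicate 2 at 0 h (-0.16, limma adjusted p = 0.19) or replicate 3 at 24 h (-0.21, limma adjusted p = 0.052).
*Cox4i2*, the lung isoform, averaged 2.35, 0.767 and 0.594 CPM in *Nanog* KO cells at 0, 12 and 24 h and 2.42, 0.358 and 0.336 CPM in control cells. *Cox4i1*, the widespread form, lay between 399 and 539 CPM in all libraries and was not called over time. *Cox7b2* lay between 0.131 and 1.96 CPM, and *Cox7b* was called lower at 12 h in both genotypes (-0.29 and -0.35). *Cox7a2l*, a factor of supercomplexes, was called lower (-0.44 and -0.32) at 24 h, a call lost in control cells without replicate 2 at 0 h (-0.14, limma adjusted p = 0.073).

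**Figure D4:**
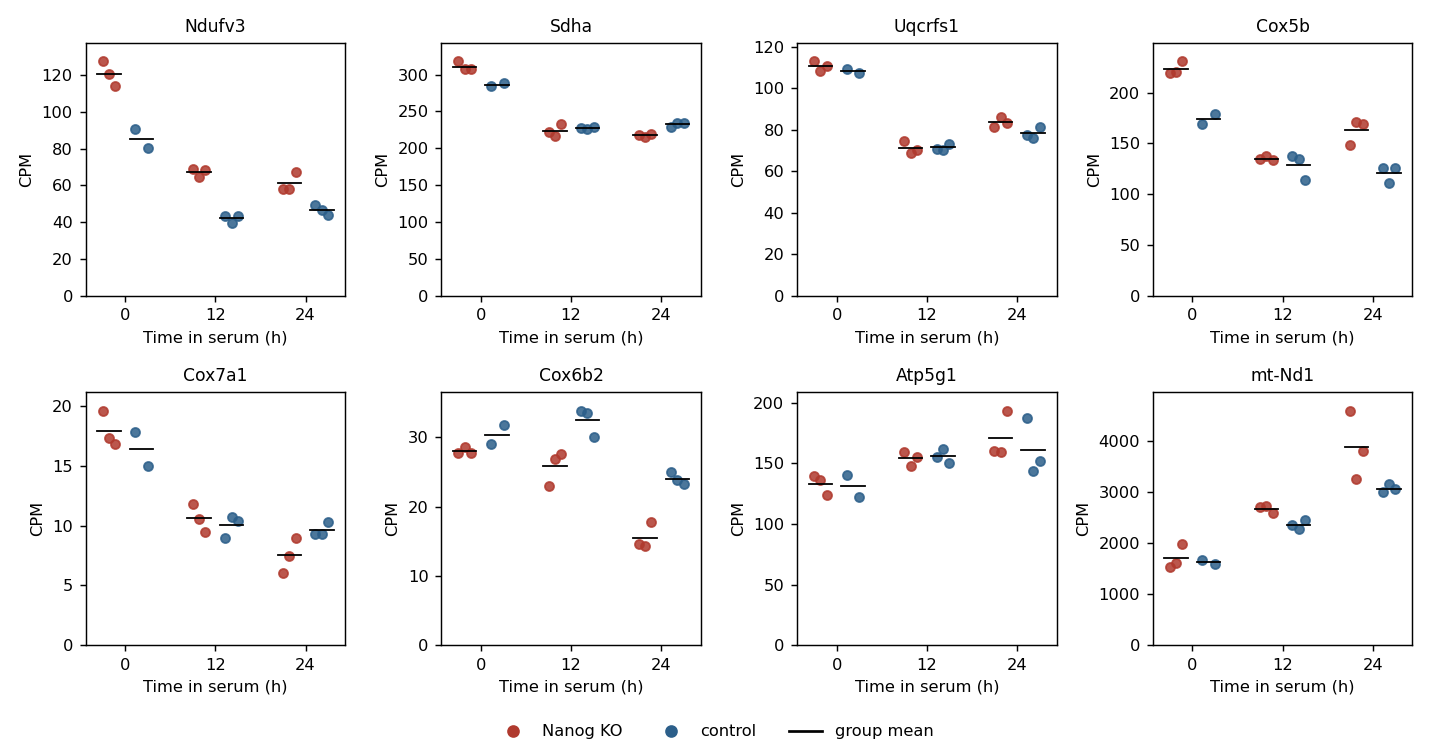
CPM of *Ndufv3*, *Sdha*, *Uqcrfs1*, *Cox5b*, *Cox7a1*, *Cox6b2*, *Atp5g1* and *mt-Nd1* against hours in serum. Points are libraries of *Nanog* KO or control cells and bars are group means. *Ndufv3*, *Sdha* and *Cox5b* were lower by 12 h, *Uqcrfs1* was lowest at 12 h, *Cox6b2* was called lower at 24 h and not at 12 h, and *mt-Nd1* reached 3261 to 4603 CPM in *Nanog* KO and 3011 to 3156 CPM in control libraries.

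Complex V, the ATP synthase, had members called in both directions. Of its 17 nuclear members 8 and 8 were lower at 12 and 24 h in *Nanog* KO cells (26.1 and 29.5% of all genes tested). In control cells 10 and 7 were lower (24.5 and 28.7% of all genes), and 2 and 3 were higher in each genotype. Of all genes 25.7 and 28.8% were higher in *Nanog* KO cells and 22.6 and 26.1% in control cells, larger shares than those of the 17. At 12 h the higher members were *Atp5s* and *Atp5sl*, not stable subunits, in *Nanog* KO cells, and *Atp5sl* and *Atp5g1* in control cells. This *Atp5g1* call was lost in 10 of the 17 fits that left out 1 library. At 24 h they were *Atp5g1*, *Atp5s* and *Atp5sl* in *Nanog* KO cells, and *Atp5g1*, *Atp5l* and *Atp5sl* in control cells. *Atp5o*, a stalk subunit, was called lower (-0.39 ± 0.06 and -0.44 ± 0.07) at 24 h, whereas the catalytic subunit *Atp5b* was at -0.12 ± 0.05 and 0.001 ± 0.06, not called. *Atp5g1*, *Atp5g2* and *Atp5g3* encode the same mature protein of the rotor ring. *Atp5g1* had 139.5, 137 and 124 CPM at 0 h, 159.7, 148 and 155 CPM at 12 h and 160.4, 159.6 and 193 CPM at 24 h in *Nanog* KO libraries, and 140.1 and 123 CPM, 155, 162 and 150.2 CPM and 187, 144 and 152 CPM at the same times in control libraries. All later libraries lay above those at 0 h in both genotypes, in control cells by a narrow margin.
Between 24 h and 0 h *Atp5g1* was called higher by 0.36 ± 0.09 and 0.29 ± 0.10 (limma adjusted p = 0.002 and 0.02). The control call was lost without replicate 3 at 0 h (0.19, limma adjusted p = 0.21) or replicate 1 at 24 h (0.17, limma adjusted p = 0.1). *Atp5g2* was called lower (-0.40 ± 0.06 and -0.33 ± 0.07), and so was *Atp5g3* (-0.22 ± 0.05 and -0.40 ± 0.05). *Atp5sl*, known for a role in complex I assembly, had 27.1, 22.9 and 26.5 CPM at 0 h, 40.4, 37.9 and 39.2 CPM at 12 h and 36.2, 32.5 and 39.5 CPM at 24 h in *Nanog* KO libraries, and 34.8 and 29 CPM, 44.1, 47.6 and 47.2 CPM and 40.5, 37.9 and 34.7 CPM at the same times in control libraries. Its mean was highest at 12 h in both genotypes and, in control cells, 1 library at 24 h fell just short of the highest at 0 h. Without *Atp5sl*, *Atp5s* and *Cox7a2l*, 42 of 77 nuclear members were lower and 2 higher at 24 h in *Nanog* KO cells.

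From 12 to 24 h nuclear members moved less. In *Nanog* KO cells 6 were higher and 3 lower (13.1 and 14.3% of all genes tested), with a median of 0.001, and without replicate 3 at 24 h, the library of that group with the highest nuclear share, 3 were higher and 10 lower. In control cells 17 were higher and 5 lower (15.1 and 16.8% of all genes), with a median of 0.03. The lower count there was 1 to 8 without 1 library, with 1 without replicate 2 at 12 h, 2 without replicate 2 at 24 h, 3 without replicate 1 at 12 h or replicate 3 at 24 h and 8 without replicate 1 at 24 h, when 11 were higher. *Ndufb3*, an accessory subunit of the membrane arm of complex I, was at 0.18 ± 0.09 in *Nanog* KO cells, not called, and was called higher in control cells (0.46 ± 0.09, limma adjusted p = 0.0012). *Cox7b* was at 0.13 ± 0.09 in *Nanog* KO cells, not called, and was called higher in control cells (0.44 ± 0.09, limma adjusted p = 0.0007). Whether these changes differed between genotypes was not tested for 12 to 24 h.

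Between the genotypes the medians of nuclear members were smaller in size than those of 12 and 24 h against 0 h. At 0 h, 27 of 80 were called higher and 6 lower in *Nanog* KO cells than in controls (33.8 and 7.5% of members, against 25.4 and 26.9% of all genes tested), with a median log2 fold change of 0.07. At 12 h, 23 were higher and 4 lower (28.8 and 5.0%, against 24.6 and 25.2% of all genes), with a median of 0.11. At 24 h, 18 were higher and 8 lower (22.5 and 10% of members, against 23.4 and 24.5% of all genes), with a median of 0.08. The shares called higher at 12 and 24 h were near those of all genes, and the shares called lower were below them at each time. At 0 h the counts turned on single libraries, with 13 higher and a median of -0.01 without replicate 3 of control and 1 lower when replicate 2 of control, replicate 2 of *Nanog* KO or replicate 3 of *Nanog* KO was left out. At 24 h, with plain CPM 12 nuclear members were higher and 17 lower, and 12 were lower without replicate 3 of *Nanog* KO at 24 h.
Over all members, plain CPM called 17 higher and 17 lower at 24 h, in place of 27 and 8, and 21 higher and 8 lower at 12 h, in place of 27 and 4. The median of all genes tested moved as well with plain CPM, from -0.013 to -0.081 at 24 h and from -0.002 to -0.069 at 12 h. At 24 h, 4 nuclear members were lower when replicate 1 or replicate 2 of the 24 h *Nanog* KO group was left out, and 5 when replicate 2 of the 0 h or 12 h *Nanog* KO group or replicate 1 of the 12 h or 24 h control group was.

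The 4 nuclear members on chromosome 15 were higher in *Nanog* KO cells throughout. *Ndufb9* and *Ndufa6*, accessory subunits of complex I, *Cox6c* of complex IV and *Atp5g2* were each called higher in *Nanog* KO cells at all 3 times, with medians of 0.69, 0.66 and 0.49 at 0, 12 and 24 h, where the 76 on other chromosomes had medians of 0.06, 0.10 and 0.06. *Ndufb9* had 161, 150.3 and 143 CPM in *Nanog* KO libraries against 94.3 and 79.4 CPM in control libraries at 0 h. At 12 h it had 133, 129.5 and 123 CPM against 80.7, 82.8 and 78.8 CPM, and at 24 h 124, 120.3 and 146 CPM against 82.8, 81.6 and 82.6 CPM. The genotypes did not overlap at any time. The log2 fold changes were 0.80 ± 0.08, 0.66 ± 0.07 and 0.65 ± 0.07 at 0, 12 and 24 h (limma adjusted p = 7.8e-08, 2.5e-07 and 3.7e-07). Those of *Cox6c* were 0.62, 0.68 and 0.51, those of *Atp5g2* 0.55, 0.65 and 0.48, and those of *Ndufa6* 0.77, 0.41 and 0.26. At 24 h the call of *Ndufa6* was lost without replicate 3 of *Nanog* KO (0.13, limma adjusted p = 0.15) or replicate 2 or 3 of control. Without these 4 members, 23, 19 and 14 of 76 were higher and 6, 4 and 8 lower at 0, 12 and 24 h. Of all genes tested 25.4, 24.6 and 23.4% were higher and 26.9, 25.2 and 24.5% lower. The share of the 76 called higher was thus near that of all genes at 12 h and below it at 24 h. The chromosome was looked at after the values were seen, and whether other genes of chromosome 15 differed in the same way was not tested.

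**Figure D5:**
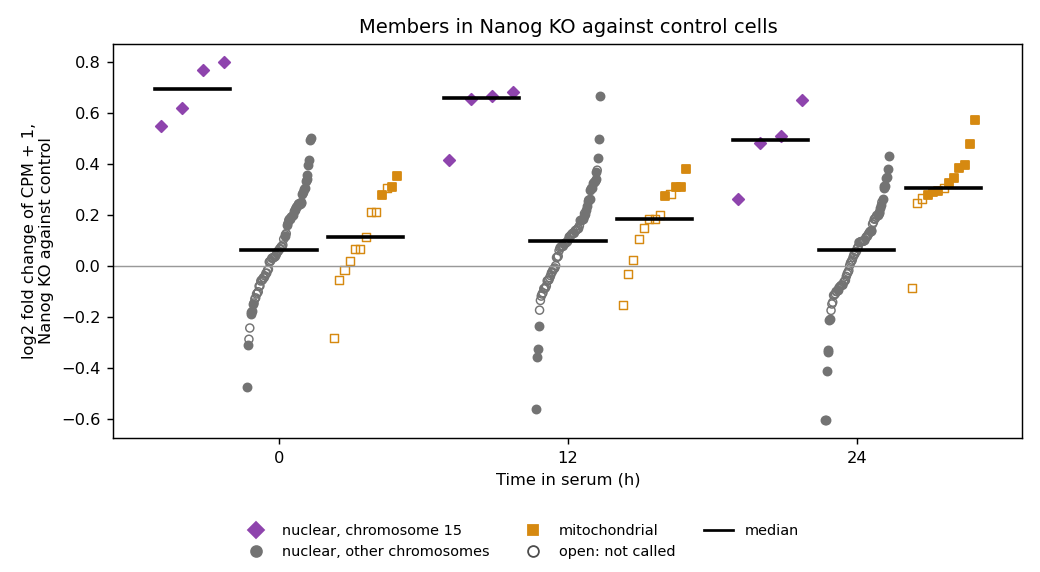
log2 fold changes of CPM + 1 in *Nanog* KO against control cells for each member, against hours in serum, for nuclear members on chromosome 15, nuclear members on other chromosomes and mitochondrial members. Filled marks were called at a limma adjusted p under 0.05 and bars are medians. The 4 members on chromosome 15 lie above 0 at each time, with medians of 0.69, 0.66 and 0.49.

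On other chromosomes *Ndufv3* was called higher in *Nanog* KO cells at all 3 times (0.50, 0.67 and 0.38), and so was *Ndufa9*, near the junction of the complex I arms (0.50, 0.50 and 0.35). *Cox5b* was called at 0 and 24 h (0.36 and 0.43) and not at 12 h (0.08 ± 0.07). *Cox6b2* was called lower at 12 and 24 h (-0.32 and -0.60), and *Cox7a1* and *Atp5j*, a stalk subunit of ATP synthase, at 24 h (-0.34 and -0.21). At 24 h, *Cox7a1* lost its call without replicate 1 of *Nanog* KO (-0.21, limma adjusted p = 0.17) or replicate 3 of control, and *Atp5j* without replicate 2 of *Nanog* KO or replicate 1 of control (-0.14, limma adjusted p = 0.064).

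Mitochondrial members were called higher in *Nanog* KO cells than in controls in 3 cases at 0 h, 4 at 12 h and 9 at 24 h (23.1, 30.8 and 69.2% of the 13, against 25.4, 24.6 and 23.4% of all genes tested), so that the shares at 0 and 12 h were near those of all genes, with medians of 0.11, 0.18 and 0.30, and none was called lower by limma, edgeR or DESeq2 or at an unadjusted p under 0.05. For *mt-Nd1*, the log2 fold change at 24 h, from the values above, was 0.33 ± 0.10 (limma adjusted p = 0.011), with no overlap between genotypes, and the call was lost without replicate 1 of *Nanog* KO (0.20, limma adjusted p = 0.082). These counts rested on few libraries. At 24 h, 2 were called, with a median of 0.20, without replicate 1 of *Nanog* KO, 4 without replicate 1 of control, 5 with plain CPM and 3 with quantile normalization. At 0 h, 0 were called without replicate 3 of *Nanog* KO or replicate 2 of control and with plain CPM or quantile normalization, and 1 without replicate 3 of control. At 12 h, 1 was called without replicate 1 of *Nanog* KO or with plain CPM, and 2 without replicate 2 of *Nanog* KO or replicate 2 or 3 of control and with quantile normalization.
With the copies added, 4, 6 and 12 of 13 were called higher at 0, 12 and 24 h. *mt-Co3* was then higher at each time, with 2279, 2369 and 3065 CPM in *Nanog* KO libraries against 1828 and 1658 CPM in control libraries at 0 h, 2825, 2689 and 2398 CPM against 1978, 1835 and 2063 CPM at 12 h and 4054, 2964 and 3637 CPM against 2598, 2782 and 2581 CPM at 24 h. The genotypes did not overlap, and the log2 fold changes were 0.55 ± 0.12, 0.43 ± 0.11 and 0.41 ± 0.11.

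The change from 0 to 24 h was compared between genotypes as an interaction, where a negative value means a lower change in *Nanog* KO cells than in controls. Among nuclear members 1 was positive and 5 negative (15.5 and 14.3% of all genes tested). *Ndufb10*, of the membrane arm of complex I, was positive (0.26 ± 0.09), with 62, 64.1 and 65.2 CPM at 24 h and 63.6, 67.5 and 61.2 CPM at 0 h in *Nanog* KO libraries against 57.8, 52 and 55.2 CPM and 71 and 61.7 CPM in control libraries. Its level overlapped between times in *Nanog* KO cells, whereas control libraries lay lower at 24 h than at 0 h. The call was lost in 7 of the 17 fits that left out 1 library, with 0.16, limma adjusted p = 0.21 without replicate 2 of control at 0 h, whereas no call of the negative members was lost in those fits. *Ndufa6*, *Cox6b2*, *Uqcrb*, *Ndufs1* and *Sdha* were negative. Without replicate 3 of *Nanog* KO at 24 h 14 nuclear members were negative, and without replicate 2 of control at 0 h 15 were, with 0 positive in both cases, and 3 were positive without replicate 3 of control at 0 h and 2 without replicate 1 of *Nanog* KO at 24 h. None was positive when replicate 1 or 3 of the 0 h or replicate 2 of the 24 h *Nanog* KO group, or replicate 2 or 3 of the 24 h control group, was left out. None of the 13 mitochondrial members was called by limma, edgeR or DESeq2, 3 were positive and 0 negative at an unadjusted p under 0.05, and 4 were called positive without replicate 2 of *Nanog* KO at 24 h and 3 without replicate 3 of *Nanog* KO at 0 h. A single member was called when replicate 2 of the 0 h *Nanog* KO group, replicate 2 or 3 of the 12 h control group or replicate 3 of the 24 h control group was left out.

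Genes around the respiratory chain were read from lists, for 24 h against 0 h, where 28.8% of all genes tested were called higher and 29.5% lower in *Nanog* KO cells, against 26.1 and 28.7% in control cells. Of 39 tested assembly factors 13 were called higher and 7 lower in *Nanog* KO cells, against 6 and 8 in control cells (33.3% of the list higher in *Nanog* KO, 15.4% in control cells), with medians of 0.08 and 0.06. Of 79 mitochondrial ribosomal protein genes 31 were called higher and 8 lower in *Nanog* KO cells, against 20 and 10 in control cells (39.2 and 10.1% of the list in *Nanog* KO, 25.3 and 12.7% in control cells), with medians of 0.10 and 0.05. Of 24 genes of mitochondrial protein import 13 were called higher and 2 lower in *Nanog* KO cells, against 6 and 4 in control cells (54.2 and 8.33% of the list in *Nanog* KO, 25 and 16.7% in control cells), with medians of 0.17 and 0.11. *Tomm5* and *Tomm40*, of the pore in the outer membrane, were higher by 1.04 and 0.71 in *Nanog* KO cells, against 0.58 and 0.29 in control cells. Of 19 genes of the TCA cycle 3 were called higher and 8 lower in *Nanog* KO cells, against 4 and 9 in control cells (15.8 and 42.1% of the list in *Nanog* KO, 21.1 and 47.4% in control cells), with medians of -0.07 and -0.12, and at 24 h 14 of them were higher in *Nanog* KO cells than in controls (73.7%, against 23.4% of all genes). Of 6 subunits and carriers with other symbols 3 were called higher and 2 lower in *Nanog* KO cells, against 1 and 1 in control cells.
Of 15 genes for transcription and maintenance of mitochondrial DNA, 4 were called higher and 2 lower in *Nanog* KO cells, against 6 and 0 in control cells (26.7 and 13.3% of the list in *Nanog* KO, 40 and 0% in control cells). *Tfam*, which packs this DNA and starts its transcription, was at 0.10 ± 0.06 and 0.01 ± 0.07, and *Polrmt*, its RNA polymerase, at -0.15 ± 0.07 and -0.08 ± 0.07, none of them called. Of 19 genes for processing and stability of mitochondrial RNA 7 were called higher and 3 lower in *Nanog* KO cells, against 9 and 5 in control cells (36.8 and 15.8% of the list in *Nanog* KO, 47.4 and 26.3% in control cells). *Elac2*, which trims the 3′ ends of tRNAs, was higher (0.67 ± 0.06 and 0.40 ± 0.06) and *Grsf1*, of the mitochondrial RNA granules, was lower (-0.77 ± 0.07 and -1.28 ± 0.07). Of 15 regulators of nuclear mitochondrial genes, 6 were called higher and 2 lower in *Nanog* KO cells, against 5 and 3 in control cells (40 and 13.3% of the list in *Nanog* KO, 33.3 and 20% in control cells). *Nrf1*, which binds many promoters of the chain, was lower (-0.35 ± 0.05 and -0.21 ± 0.06, limma adjusted p = 7e-06 and 0.0036) and *Myc* was higher (1.89 ± 0.06 and 1.36 ± 0.07).

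Promoters, from 250 bases before to 50 after a gene's start, were taken from RefSeq (GRCm38.p6) and matched 68 of the 80 nuclear members. Among the unmatched were *Atp5a1*, *Cox4i1*, *Cox4i2*, *Cox6c*, *Ndufa2*, *Ndufb9*, *Ndufs1*, *Sdhc*, *Uqcrb*, *Uqcrc2* and *Uqcrq*. The letters GCGCATGC (an NRF1 core), CCGGAAG (ETS factors such as GABPA) and AAGATGGC (YY1) were searched on both strands. They were in 10 members (14.7%, against 3.05% of the 27025 genes with a promoter in the table), 16 members (23.5%, against 9.93%) and 11 members (16.2%, against 3.19%). At least 1 of the 3 was in 31 members (45.6%, against 14.9%). The 27025 genes include ones not tested here, whereas all members were tested. Shares among tested genes alone were not taken, so the gap cannot be called particular to the members. At 24 h against 0 h in *Nanog* KO cells the median log2 fold change was -0.18 with and -0.15 without the NRF1 letters, -0.19 and -0.16 for ETS, and -0.13 and -0.20 for YY1. In control cells it was -0.15 and -0.17 for NRF1, -0.16 and -0.15 for ETS, and -0.13 and -0.16 for YY1.
The promoters of *Cox6a1*, *Atp5g2* and *Ndufa6*, all on the minus strand, are shown because these genes were called over time and hold NRF1 letters, which are in capitals together with the ETS letters of *Cox6a1*. In *Cox6a1* and *Atp5g2* the NRF1 letters occur on both strands and overlap. They lie at chr5:115348909-115349208, chr15:102670998-102671297 and chr15:82354242-82354541 of GRCm38.
Cox6a1: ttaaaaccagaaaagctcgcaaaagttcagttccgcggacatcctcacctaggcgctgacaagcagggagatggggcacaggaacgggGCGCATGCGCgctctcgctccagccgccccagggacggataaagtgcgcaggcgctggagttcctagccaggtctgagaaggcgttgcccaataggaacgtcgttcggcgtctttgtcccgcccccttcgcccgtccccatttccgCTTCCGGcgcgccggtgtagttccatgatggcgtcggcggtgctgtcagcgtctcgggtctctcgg
Atp5g2: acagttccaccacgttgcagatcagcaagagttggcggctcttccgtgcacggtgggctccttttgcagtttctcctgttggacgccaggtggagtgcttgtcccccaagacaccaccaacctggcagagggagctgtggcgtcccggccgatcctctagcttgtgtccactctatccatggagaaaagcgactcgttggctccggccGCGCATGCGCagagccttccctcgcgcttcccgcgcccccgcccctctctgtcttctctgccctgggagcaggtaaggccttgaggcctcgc
Ndufa6: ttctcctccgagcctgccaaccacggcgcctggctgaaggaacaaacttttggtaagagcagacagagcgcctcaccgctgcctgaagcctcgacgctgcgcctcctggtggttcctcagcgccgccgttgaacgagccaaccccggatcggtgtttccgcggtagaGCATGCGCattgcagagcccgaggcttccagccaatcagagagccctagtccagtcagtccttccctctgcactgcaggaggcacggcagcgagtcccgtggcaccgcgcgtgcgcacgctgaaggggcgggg
*Cox6a1*, the widespread isoform of a small complex IV subunit, was called lower at 24 h against 0 h in both genotypes (-0.52 ± 0.07 and -0.42 ± 0.08), as was *Atp5g2*. *Ndufa6* was called lower in *Nanog* KO cells (-0.52 ± 0.09) and was at -0.02 ± 0.10 in control cells. None of the 3 motifs was in the windows of *Ndufv3*, *Sdha*, *Uqcrfs1*, *Cox5b* or *Cox7a1*, which were lower, or of *Atp5g1*, which was higher.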

How the data were processed

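Poly(A) RNA was sequenced in single reads. The authors trimmed reads with cutadapt (1.3 in the submitters' processing notes, which also name CASAVA 1.8.2), estimated gene counts with RSEM (1.2.3 in those notes) on GRCm38, and deposited CPM scaled by TMM, a normalized signal. The study's methods also name batch correction with ComBat. Values that are whole reads times 1 scale factor a library show no such correction, and the values were used as deposited. Each deposited CPM value corresponds to a whole number of reads (100% of values in every library, within 0.001 reads), and these reads were recovered for the alternatives. The main test was limma 3.58.1 (R 4.3.3) with trend on log2(CPM + 1), a pseudocount of 1 CPM, over 17 libraries in 6 groups, two-sided, with Benjamini-Hochberg adjustment over the 15117 rows that pass the filter of 1 CPM in 3 libraries or more (353 rows were not tested). This understates changes of low genes. edgeR 4.0.16 and DESeq2 1.42.0 on the recovered reads, other scalings, filters, pseudocounts and variance models, each library left out, and the replicate number as a block were alternatives. Scripts were tested on simulated data. Copies were found by shared 31-base words of GENCODE transcripts, among genes in the deposited table.

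The members and lists were chosen with earlier results of these data known. Named were all mitochondrial members, the 3 highest and 3 lowest called members of each comparison with a mean of at least 5 CPM, isoform sets, the Sdh genes and up to 4 genes of each list. *Uqcrfs1*, *Ndufa2*, *Ndufa3*, *Ndufa9*, *Cox5a*, *Atp5b*, *Atp5o* and the non-subunit *Atp5s* fall outside this and were named after their values were seen. Some genes that the rule names are not reported here.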

Additional observations from a re-analysis of the deposited data

Results flagged for a closer look

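The change from 0 to 24 h differed between genotypes for 6 members by the interaction test of limma (adjusted p under 0.05), of which 1 was positive and 5 negative. All are nuclear, and they make up 1.25 and 6.25% of the 80 nuclear members. Of all genes tested 15.5% were positive and 14.3% negative, so both shares of the members were below those of all genes. *Uqcrb*, a subunit of complex III, had 108, 103 and 116 CPM at 24 h and 143, 141 and 132 CPM at 0 h in *Nanog* KO libraries, with no overlap, and 114, 123 and 108 CPM at 24 h and 114 and 104 CPM at 0 h in control libraries, which overlapped, for an interaction of -0.417. *Ndufs1* was called lower in *Nanog* KO cells and had an interaction of -0.365, while its control change, called higher, was 0.02 (limma adjusted p = 0.84) without replicate 3 of control at 0 h. *Ndufa6* had -0.505, being called lower at 24 h in *Nanog* KO cells only, a difference that this interaction tests. *Cox6b2* had -0.493 and *Sdha* -0.212, both of them called lower in both genotypes. *Ndufb10* had 0.256 and was called lower in control cells, and without replicate 2 of control at 0 h its interaction was 0.16 (limma adjusted p = 0.21).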

How the results depend on the processing

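Counts are over all 93 members. With only the groups compared in the fit, *Nanog* KO against control gave 3 lower at 0 h, 47 higher at 12 h and 3 lower at 24 h, and 12 h against 0 h gave 59 lower in *Nanog* KO and 10 higher in control cells. Plain CPM gave 8 lower at 12 h and 17 higher and 17 lower at 24 h between genotypes, 13 higher and 25 lower at 12 h and 22 lower at 24 h in control cells, and 0 positive and 9 negative interactions. CPM of nuclear genes only gave 8 and 15 lower at 12 and 24 h between genotypes, 14 higher and 25 lower at 12 h and 22 lower at 24 h in control cells, and 9 negative interactions. Quantile normalization gave 10 higher at 12 h in control cells and 9 negative interactions. limma without trend gave 5 lower at 24 h between genotypes, 2 higher at 12 h and 3 lower at 24 against 12 h in control cells, and 0 positive interactions. Plain CPM and CPM of nuclear genes only also moved the median of all genes tested, at 24 h between genotypes from -0.013 to -0.081 and -0.076. The cause of these shifts was not tested.

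Leaving out 1 library gave, for *Nanog* KO against control, 14 to 35 higher and 1 to 7 lower at 0 h, 23 to 34 and 3 to 4 at 12 h, and 21 to 31 and 4 to 12 at 24 h. In *Nanog* KO cells it gave 5 to 11 and 34 to 46 at 12 h, 15 to 17 and 32 to 52 at 24 h, and 10 to 17 and 2 to 10 at 24 against 12 h. In control cells it gave 2 to 8 and 19 to 50 at 12 h, 10 to 18 and 17 to 37 at 24 h, and 15 to 25 and 1 to 8 at 24 against 12 h. It gave 0 to 4 positive and 5 to 15 negative interactions.

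A single value turned round in 2 settings, with *mt-Co1* in *Nanog* KO against control at 0 h at -0.185 with quantile normalization and *mt-Co3* in control cells at 12 h at 0.168 with its copy added. Of 216 values of named members, 210 kept direction and call with edgeR and 204 with DESeq2. Replicate numbers did not pair the samples (40 same-numbered pairs correlated at -0.191 to 0.104, and 2 of 17 libraries best with their own number). With the number as a block, 5 members were lower at 24 h between genotypes, and 202 of the 216 values kept direction and call. Depth limits *Cox4i2* and *Cox7b2*, which are near 1 CPM.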
